A study of Mus musculus with 87 samples.

Results

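The 10 genes described here mark the primitive endoderm or build its basement membrane: Gata6, Gata4, Sox17 and Sox7 (transcription factors), Pdgfra (a growth factor receptor), Dab2 (an endocytic adaptor), and Lama1, Lamb1, Col4a1 and Col4a2 (laminin and collagen IV chains). They were chosen by symbol with earlier results of these data known, so the shares over all genes given below are no test of the list. All 10 were found among the 55487 genes of the count tables. The series examined what the homeobox gene Obox4 does alone and together with Dux, a second homeobox gene that activates the transcripts of the 2-cell (2C) embryo. The 5 RNA-seq experiments held 41 libraries, and CUT&RUN, which maps a protein or histone mark on DNA, covered OBOX4, DUX and 3 histone marks. The groups were as follows.

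Mouse embryonic stem cells (mESCs) of a clonal EB3 line carried a doxycycline-inducible 3×FLAG-Obox4 transgene and were taken at 0, 12 and 48 h of induction, with 3 libraries each and no doxycycline-treated line that lacked the transgene. A further set of mESCs was WT, had lost the Obox4 gene cluster (Obox4 KO), lacked Dux (Dux KO) or had both losses (double KO). Each group had 3 libraries and had been grown in pladienolide B (PlaB), a splicing inhibitor used to obtain totipotent-like cells. The paper's Obox4 knockout, in mESCs and in mice, spared an intact solo copy outside the cluster. EB3 cells have a 129/Ola background. The knockout lines were clones of them, and the double KO line was derived from the Obox4 KO line. All mESC media held serum, LIF, the GSK3 inhibitor CHIR99021 and the MEK inhibitor PD0325901, and the dishes were coated with a laminin-511 fragment. B6D2F1 zygotes from females aged 8 weeks were injected with antisense oligonucleotides (ASOs) and collected as 30 pooled 2C-embryos 20 h later. These 2C groups were a scramble ASO at 40 µM, Obox4 knockdown (KD) at 20 µM, Dux KD at 20 µM, double KD at 40 µM and double KD with 100 ng/µL Obox4 mRNA, with 2 libraries each, so the single knockdowns were compared with a scramble at another dose. Morulae came from zygotes that received scramble or double KD ASOs (40 µM), 2 libraries each, and the double KD libraries hold embryos selected for their morula-like form. Single blastomeres of Dux KO 2C-embryos were WT, Het or KO for Obox4, with 2 cells each. For CUT&RUN, anti-FLAG lists came from mESCs with the induced 3×FLAG-Obox4 transgene (3 lists) and from mESCs with a 3×FLAG-Dux transgene (1 list), and lists of H3K4me3, H3K27ac and H3K27me3 came from WT EB3 and Obox4 KO mESCs without and with PlaB (3 lists per mark and condition). Nothing in the labels ties the replicates of an mESC group to separate clones, so p-values measure the spread between libraries, which may be technical.

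The primitive endoderm is the layer of the blastocyst that lies on the epiblast and later forms the yolk sac. FGF4 from epiblast precursors signals through FGF receptors and the MEK and ERK kinases to induce GATA6, which is followed by SOX17, GATA4 and SOX7, and MEK inhibitors block this fate. The cells express the PDGF receptor PDGFRA and the adaptor DAB2, and their descendants secrete laminin-111 and collagen IV into the basement membrane. mESCs correspond to the epiblast. In the uninduced mESCs here the transcription factors, Pdgfra and Dab2 were low, while Lama1 was abundant.

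Reads assigned to genes ranged from 14283083 (double KO with PlaB, replicate 3) to 104864947 per library. Obox4 rows of the annotation are copies that share reads. With multi-mapping reads included, their sum was 13 to 24 reads at 0 h and 280 to 413 at 48 h of induction, and in PlaB it was 4269 to 4791 in WT, 168 to 564 in Obox4 KO, 6 to 19 in Dux KO and 0 to 6 in double KO. Dux (Duxf3 in the annotation) was at 0 reads in every Dux KO and double KO library and in all 6 blastomeres. The Obox4 sum of uniquely mapped reads did not separate blastomeres labelled Obox4 KO (477 and 1005 reads) from WT ones (760 and 1250). The sum runs over 39 Obox4-named genes, so it can hold reads of copies that the deletion spared. The paper set these genotypes by PCR on the other blastomere of each embryo. For the knockdown it also showed Dux and Obox4 transcript levels of ASO-injected embryos from RNA-seq. It stained OBOX4 and DUX proteins in 2C-embryos and measured their intensity per nucleus. In 2C-embryos the sum, in CPM (reads of a gene scaled to the size of the library), was 62.1 and 70.8 with scramble, 64.3 and 81.6 in the libraries labelled Obox4 KD and 48.6 and 44.8 in those labelled double KD, so single Obox4 KD was not lower. It was also lower in Dux KD, at 55.3 and 48.9 CPM, so lower Obox4 was not particular to libraries with the Obox4 ASO. Duxf3 was at 5.89 and 7.15 CPM with scramble, 3.86 and 1.98 with Dux KD and 4.26 and 3.14 with double KD. With double KD and Obox4 mRNA, Duxf3 was at 8.192 and 5.685 CPM, which overlapped scramble. In morulae both genes were higher in the libraries labelled double KD, with Obox4 at 3.76 and 9.65 CPM against 0.286 and 0.321, and Duxf3 at 0.286 and 7.30 CPM against 0.134 and 0.0837. Duxf3 thus followed the labels of Dux KD and double KD in 2C-embryos. Obox4 was lower than scramble with double KD, but also with Dux KD alone. All 6 blastomeres were Dux KO, so their 0 reads of Duxf3 had no Dux WT cell beside them. Transcript levels did not follow the labels of single Obox4 KD, of double KD morulae or of Obox4 KO blastomeres. Duxf3 did not follow the label of double KD with Obox4 mRNA either. Directions for those groups are of the libraries as labelled.

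Libraries of the Obox4 KO and double KO groups in PlaB differed among themselves. The third library of each stood apart from the other 2, with a chi-square per gene of 93.3 and 98.8 in Obox4 KO against 3.57 between the others, and of 271 and 276 in double KO against 19.5. PlaB results that change without these 2 libraries are therefore given both ways. The second double KD morula library also differed from the first, with 1252 CPM summed over 13 epiblast markers against 2719 in the first and 3545 to 3800 in the scramble libraries. In these bulk libraries, more cells that express a gene and more RNA of it per cell cannot be told apart.

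In the induction series, 5 of the 10 genes rose by 48 h, all of them genes of the receptor, the adaptor or the matrix, while the GATA factors did not pass the test. CPM of these genes were scaled by edgeR's TMM factors. A gene was called where edgeR's quasi-likelihood test, adjusted over all genes tested, gave p of 0.01 or less and the level differed 2-fold or more. Sox7 had at most 2 reads in any of these libraries and was removed by the filter on low counts, which left 9 genes tested of 10. The 5 called genes stand beside a share of 3.95% called among the 18625 genes tested at 48 h.

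Dab2, which links receptors to clathrin-coated pits, had the largest log2 change of the 9 genes tested. It had few reads at 0 h, 19 to 37 per library. It was at 0.936, 0.665 and 1.21 CPM at 0 h, at 3.15, 1.61 and 1.48 CPM at 12 h, and at 3.88, 5.29 and 5.85 CPM at 48 h. The 48 h libraries were all above the 0 h libraries, with a log2 fold change of 2.41 ± 0.33 (SE), or 5.31-fold, and an adjusted p of 0.001 (edgeR). Lamb1, the laminin β1 chain, was at 13.6, 14.7 and 17.3 CPM at 0 h and at 39.2, 45.3 and 46.5 CPM at 48 h. Every 48 h library was above every 0 h library, and the change of 1.52 ± 0.15 on the log2 scale had an adjusted p of 0.000139 (edgeR).

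Col4a1 and Col4a2 encode the 2 chains that assemble into the common collagen IV trimer, and their genes lie head to head. Col4a1 was at 33.7, 30.8 and 32.8 CPM at 0 h, 52.4, 60.5 and 60.4 at 12 h and 77.9, 71.4 and 76.1 at 48 h. None of its 3 groups overlapped. Its change was 0.83 ± 0.10 (log2, SE) at 12 h, with an adjusted p of 0.00117 but below the fold threshold, and 1.21 ± 0.10 at 48 h with an adjusted p of 4.32e-05 (edgeR). Col4a2 was at 10.9, 9.48 and 11.1 CPM at 0 h and at 16.8, 23.5 and 24.3 CPM at 48 h, a change of 1.04 ± 0.17 with an adjusted p of 0.00233 (edgeR). Pdgfra, the receptor for PDGF-A, was at 1.59, 1.75 and 1.47 CPM at 0 h and at 3.24, 4.40 and 4.64 CPM at 48 h, a change of 1.35 ± 0.22 with an adjusted p of 0.00231 (edgeR). Pdgfra and Col4a2 lost their calls when any 0 h library, the second 48 h library or the third 48 h library was left out, which left 3 genes called.

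Lama1, the laminin α1 chain, had negative changes. It was at 386 to 404 CPM at 0 h, 217 to 269 at 12 h and 189 to 221 at 48 h, with no overlap between 0 h and either later time. The log2 change was -0.73 ± 0.11 at 12 h (adjusted p 0.00503) and -0.93 ± 0.11 at 48 h (adjusted p 0.000346, edgeR), under the 2-fold threshold both times (1.65-fold and 1.90-fold lower). Per length it was the most abundant of the 10 at 0 h, with 40.6 CPM per kb of exon against 4.35 for Col4a1, the next gene.

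Of the transcription factors, Gata6, Sox17 and Sox7 had few reads, and Gata4, with 47 to 79 reads at 0 h, was not called. Gata6, which starts the programme, had 7 to 17 reads per library at 0 h and 12 to 18 at 48 h, with a log2 change of 0.37 ± 0.42 and an adjusted p of 0.685 (edgeR). Gata4 was at 1.65 to 2.57 CPM at 0 h and 1.91 to 2.37 CPM at 48 h, with a change of -0.01 ± 0.22 (adjusted p 0.991, edgeR). Sox17 had 9, 16 and 23 reads at 0 h and 64, 37 and 35 at 48 h. Its groups did not overlap, but the 2.83-fold change had an adjusted p of 0.0105 (edgeR), just outside the threshold, and it was called with DESeq2 (adjusted p 0.00304), without the filter on low counts and with multi-mapping reads.

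At 12 h none of the 9 genes was called by edgeR, beside 0.757% of all genes tested. Of the 9, 7 had a positive log2 change, from 0.19 for Gata6 to 1.15 ± 0.35 for Dab2 (adjusted p 0.113, edgeR), and DESeq2 also called none. An unadjusted p under 0.05 (edgeR) was found for 6, among them Lama1, which fell, beside 2811 of the 18625 genes tested. The median log2 change of the 9 was 0.70 at 12 h and 1.21 at 48 h, beside a median of -0.01 over all genes tested at both times.

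**Figure D1:**
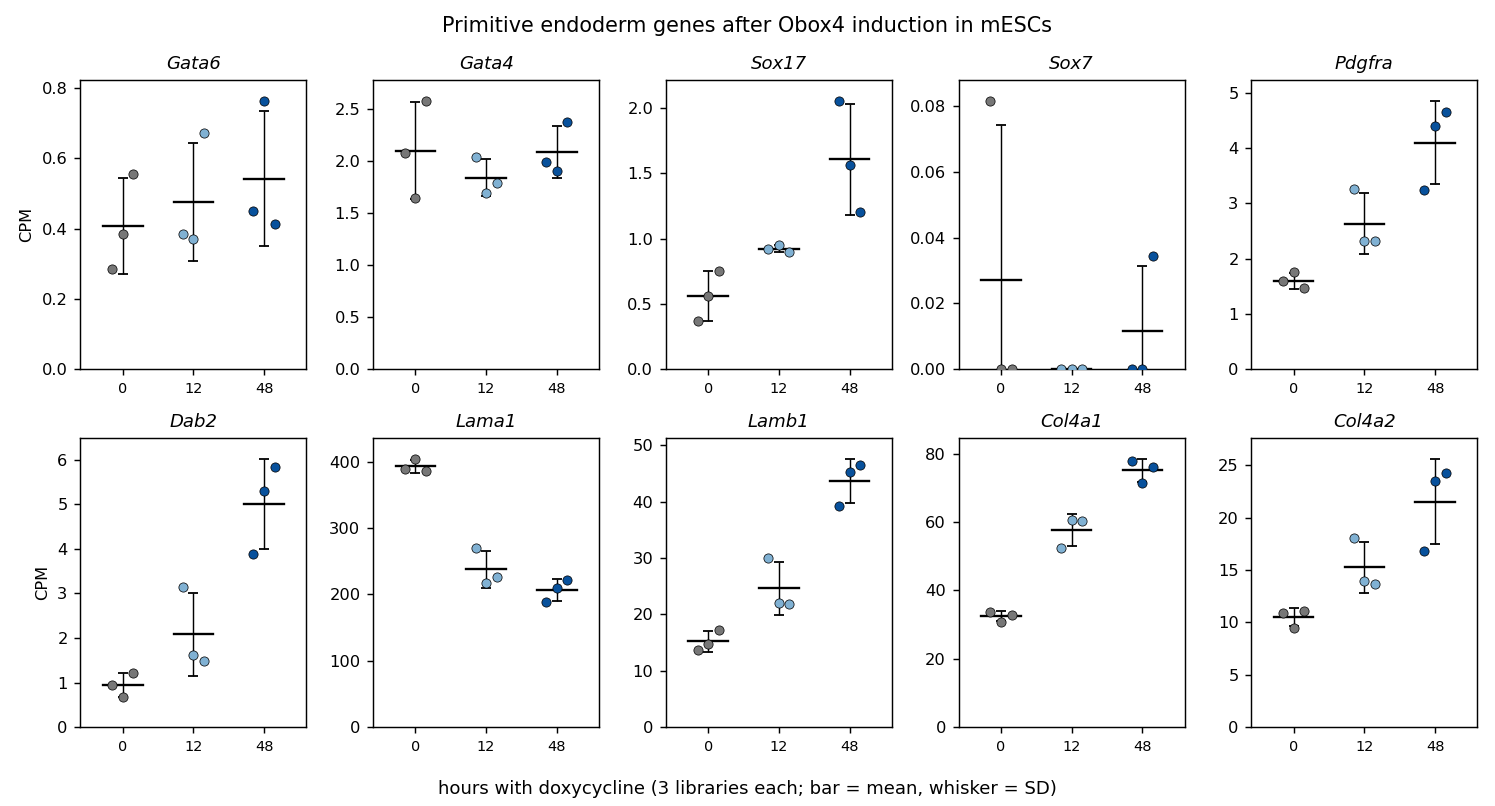
CPM of the 10 genes in each of the 9 induction libraries against hours with doxycycline, with points for libraries, bars for means and whiskers for SDs. Dab2, Lamb1, Col4a1, Col4a2 and Pdgfra were higher in every 48 h library than in every 0 h library, Lama1 was lower, and Gata6 and Gata4 overlapped.

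Other genes of the pathways are given by list. Of 20 tested basement membrane genes, 3 rose at 48 h: Col18a1 (log2 1.67 ± 0.09), Col4a5 (1.41 ± 0.16) and Col4a6 (1.94 ± 0.40), with adjusted p of 6.16e-06, 0.000341 and 0.00957 (edgeR), all of them collagen chains. Of 15 tested genes of the wider endoderm list, Lrp2, a receptor of the yolk sac endoderm, rose by 1.53 ± 0.16, Fst, an activin inhibitor, fell by 1.42 ± 0.16 on the log2 scale, and 13 were not called. In the FGF and ERK list, Dusp4, a phosphatase induced by ERK, rose by 1.42 ± 0.19 and 17 of 18 were not called. None of 4 PDGF genes was called, and Gata2 fell by 1.88 ± 0.19 among 4 tested GATA and SOXF genes. Medians of these lists were 0.17 (basement membrane), 0.57 (wider endoderm), 0.23 (FGF and ERK), -0.23 (PDGF) and -0.11 (GATA and SOXF), beside -0.01 over all genes.

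Markers of other cell types moved in the same libraries. All 8 markers of the 2C state rose, from 24.4 to 32.6 CPM in sum at 0 h to 176 to 222 CPM at 48 h. The sum of 8 trophectoderm markers went from 66.7 to 69.9 CPM at 0 h to 96.1 to 112 CPM at 48 h, with Krt8 and Krt18 up and Cdx2 and Tfap2c down. The 9 fibroblast markers summed to 2.56 to 3.40 CPM at 0 h and 7.82 to 8.46 CPM at 48 h, with Dcn and Postn at 0 at both times and Prrx1 also at 0 at 48 h, and Thy1 and Col1a2 were called. The 13 epiblast markers summed to 6611 to 6881 CPM at 0 h and to 6707 to 7077 CPM at 48 h. The 5 endothelium markers summed to 133 to 138 CPM at 0 h and 159 to 165 CPM at 48 h, with Tek (1.23) and Cdh5 (5.29) called up, and the 7 mesendoderm markers to 9.45 to 10.3 and 13.4 to 14.4 CPM, with none of the 5 tested called by edgeR. The part of these cells in the rise of the 5 genes was not tested.

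Across the 9 induction libraries, the genes whose profile was closest to the mean standardised profile of the 9 tested genes were Nphs1os (r = 0.984), Rbpms2 (0.977), Ece1 (0.976), Runx1t1 (0.976) and Cd276 (0.975). Within the 10, Dab2 and Lamb1 lay closest to that mean (r = 0.973 each) and Lama1 farthest (r = -0.757). These values describe 9 libraries of 3 groups, and the 9 genes themselves enter the mean.

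In PlaB-treated mESCs the double KO raised 7 of the 10 genes over WT, among them all 4 transcription factors. The 7 were Gata6, Gata4, Sox17, Sox7, Pdgfra, Col4a1 and Col4a2, none fell, and the share called among all 22328 genes tested was 18.0%. The median log2 change of the 10 was 2.15, beside -0.06 over all genes. Without the third Obox4 KO and double KO libraries 8 were called, the 7 and Dab2. The single knockouts moved fewer: 3 genes in Obox4 KO (Gata4 and Sox17 up, Lama1 down; 8.88% of all genes) and 1 in Dux KO (Lama1 down; 6.32%). These 3 comparisons share the same WT libraries and are set side by side for that reason only.

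Gata6 was at 15.1, 14.3 and 15.4 CPM in WT and at 69.9, 135 and 156 CPM in double KO. It stood at 18.0, 18.0 and 17.0 CPM in Dux KO and at 18.9, 20.3 and 49.1 CPM in Obox4 KO, so every double KO library lay above every other library. Its change in double KO was 3.01 ± 0.36 (log2, SE), or 8.04-fold, with an adjusted p of 3.60e-05 (edgeR). In Obox4 KO it was 0.98 ± 0.34 with an adjusted p of 0.0519, and without the third libraries 0.37.

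Sox17, a SOXF factor of the primitive and definitive endoderm, was at 1.74, 1.34 and 1.49 CPM in WT, 2.55, 3.12 and 7.51 in Obox4 KO, 1.64, 2.05 and 1.81 in Dux KO and 13.8, 14.2 and 21.6 in double KO. It rose 10.8-fold in double KO (3.43 ± 0.38, adjusted p 1.75e-05, edgeR) and 2.87-fold in Obox4 KO (1.52 ± 0.36, adjusted p 0.00847, edgeR). The Obox4 KO call was lost without the third Obox4 KO library (0.90) and when any 1 WT library was left out (adjusted p 0.0268 to 0.0436, edgeR), and the change was 0.88 without the third libraries of both groups. Sox7, its close relative, was at 0.601, 0.483 and 0.425 CPM in WT, 1.99, 1.55 and 2.24 in Dux KO, 0.924, 0.745 and 3.33 in Obox4 KO, and 4.61, 7.30 and 8.75 in double KO. Every library of a knockout group was above every WT library, and the double KO change of 3.76 ± 0.53 (adjusted p 0.000125, edgeR) was the largest of the 10.

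Gata4, in contrast, was highest in Obox4 KO. It was at 2.16, 2.57 and 1.80 CPM in WT, 4.50, 4.16 and 3.56 in Dux KO, 9.47, 11.4 and 7.26 in double KO and 23.2, 23.4 and 6.15 in Obox4 KO. The change was 3.01 ± 0.42 in Obox4 KO (adjusted p 0.000274) and 2.12 ± 0.41 in double KO (adjusted p 0.00131, edgeR). The third Obox4 KO library, at 6.15 CPM, lay below every double KO library and above every WT library. Pdgfra was at 2.95, 3.38 and 3.69 CPM in WT and at 5.34, 10.8 and 9.68 CPM in double KO, a change of 1.36 ± 0.24 (adjusted p 0.000763, edgeR). Obox4 KO libraries held 6.71, 6.37 and 5.51 CPM of it, all above WT, with a change of 0.89 ± 0.24 that had an adjusted p of 0.016 (edgeR).

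The collagen IV chains moved as a pair. Col4a1 was at 102, 95.4 and 105 CPM in WT, 100.3, 103 and 97.1 in Dux KO, 44.2, 41.9 and 131 in Obox4 KO and 458, 336 and 691 in double KO. It rose 4.91-fold in double KO (2.30 ± 0.38, adjusted p 0.000469, edgeR), and Col4a2 rose 4.56-fold (2.19 ± 0.35, adjusted p 0.000314, edgeR) from 48.0 to 51.6 CPM in WT to 162 to 284 CPM in double KO. In Obox4 KO the first 2 libraries lay below WT for both genes and the third above, and the change of Col4a1 was -0.48 ± 0.37 with all libraries and -1.26 without the third Obox4 KO and double KO libraries, where it was called (adjusted p 1.26e-10, edgeR). The Col4a2 change went in the same way from -0.42 to -1.14.

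Lamb1 and Dab2 were not called in any PlaB comparison of 2 genotypes with all libraries. Lamb1 was at 80.3 to 82.4 CPM in WT, 60.5 to 62.9 in Dux KO, 44.96 to 96.98 in Obox4 KO and 102 to 132 in double KO. Dab2 was at 48.8, 44.9 and 48.0 CPM in WT, 53.9, 51.4 and 67.4 in Obox4 KO, 76.6, 78.3 and 73.7 in Dux KO and 102, 105 and 58.5 in double KO. All knockout libraries were above WT for Dab2, and its double KO change of 0.91 ± 0.19 had an adjusted p of 0.00182 (edgeR) but missed the fold threshold, which it passed without the third libraries (1.13).

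Lama1 fell in both single knockouts and did not pass the test in double KO. It was at 132, 132 and 130 CPM in WT, 26.3, 27.7 and 54.3 in Obox4 KO, 45.7, 42.2 and 40.9 in Dux KO and 70.0, 68.0 and 98.7 in double KO. All knockout libraries were below all WT libraries. The change was -1.86 ± 0.24 in Obox4 KO (3.64-fold lower, adjusted p 0.000175), -1.61 ± 0.24 in Dux KO (3.06-fold lower, adjusted p 0.000465) and -0.74 ± 0.23 in double KO (adjusted p 0.0237, edgeR).

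**Figure D2:**
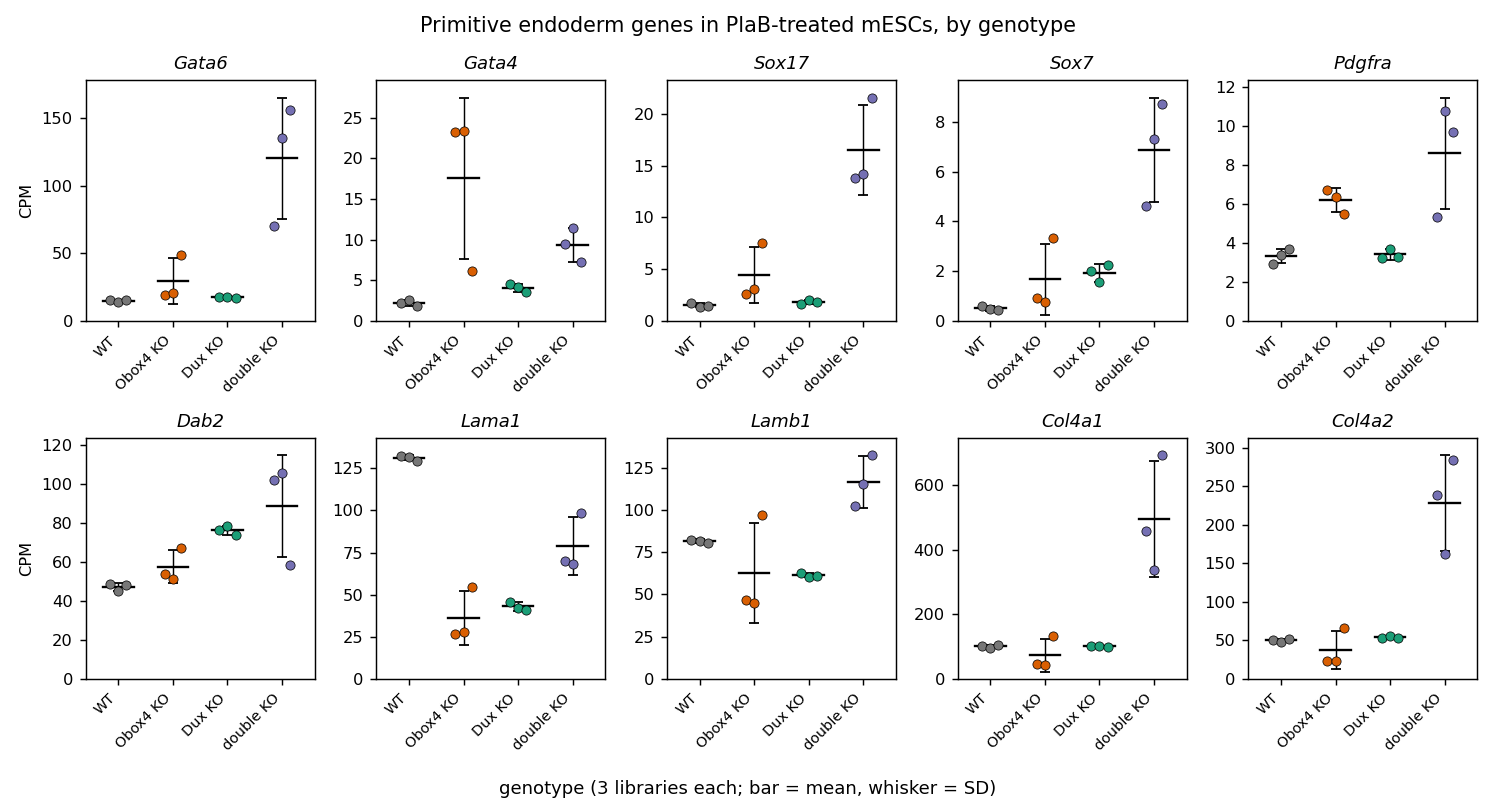
CPM of the 10 genes in each of the 12 PlaB libraries by genotype, with points for libraries, bars for means and whiskers for SDs. Gata6, Sox17, Sox7, Col4a1 and Col4a2 were highest in double KO, Gata4 was highest in 2 of 3 Obox4 KO libraries, and Lama1 was highest in WT.

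Against Dux KO, 5 of the 10 genes were higher in double KO, beside 7.07% of all genes tested. Obox4 RNA was already near 0 in Dux KO (11, 19 and 6 reads, against 6, 0 and 2 in double KO). This comparison thus sets cells from separately derived clones against each other at about the same low Obox4 level. The number of clones in each group is not given. The 5 genes were Sox17 (3.16 ± 0.37), Gata6 (2.77 ± 0.36), Col4a1 (2.31 ± 0.38), Col4a2 (2.09 ± 0.34) and Pdgfra (1.33 ± 0.24), with adjusted p from 0.000123 to 0.00206 (edgeR). Sox7 (1.82 ± 0.46, adjusted p 0.0132) and Lamb1 (0.92 ± 0.23, adjusted p 0.0133) lay just outside. Pdgfra lost its call when any 1 Dux KO library was left out (adjusted p 0.0103 to 0.0142, edgeR). Without the third libraries 7 were called, with Gata4 and Sox7 added.

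The difference between double KO and Dux KO was then set against that between Obox4 KO and WT, as an interaction term on the log2 scale. Since Dux KO cells held little Obox4 RNA, the term compares WT cells and separately derived knockout cells and is no measure of losing Obox4 RNA in 2 backgrounds. Lama1 was the 1 gene of the 10 called, beside 1.25% of all genes: the change was -1.86 from WT to Obox4 KO and 0.87 ± 0.24 from Dux KO to double KO, a difference of 2.74 ± 0.34 (adjusted p 0.000903, edgeR). Col4a1 (2.78 ± 0.53, adjusted p 0.0107) and Col4a2 (2.51 ± 0.48, adjusted p 0.011) lay just outside the threshold. Gata4 had a difference of the opposite sign, -1.80 ± 0.55 (adjusted p 0.0681, edgeR). Without the third libraries, or without the third Obox4 KO library alone, 7 were called, while other settings with all libraries gave 1 to 5, and the cause was not tested. The 7 were Gata6 (2.17), Sox17 (2.04), Lama1 (still called), Lamb1 (1.68), Col4a1 (3.24) and Col4a2 (3.03) with a positive difference and Gata4 (-2.03) with a negative one.

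Of the related lists in double KO against WT, the wider endoderm list had 9 of 21 tested genes up and 3 down. Lrp2 (2.73 ± 0.14), Plat, a protease of parietal endoderm (3.75 ± 0.30), and the WNT inhibitor Dkk1 (2.81 ± 0.31) rose, and the repressor Snai1 fell by 1.83 ± 0.12 on the log2 scale, with adjusted p of at most 1.71e-05 (edgeR). In the FGF and ERK list 7 of 18 genes fell, among them Spred1 (-1.11 ± 0.10), Spry2 (-1.13 ± 0.12) and Etv5 (-1.17 ± 0.13), which ERK signalling induces, while Dusp4 (3.09 ± 0.20) and 1 other gene rose. In the PDGF list Pdgfb rose by 3.32 ± 0.40 and the other 4 were not called. Among 6 tested GATA and SOXF genes, Gata2 (5.48 ± 0.55), Gata3 (2.66 ± 0.21) and the GATA cofactor Zfpm1 (2.42 ± 0.23) rose and Sox18 fell by 1.90 ± 0.44. Of 20 other basement membrane genes, 2 rose: Lamb2 (1.68 ± 0.21) and Serpinh1, the collagen chaperone (1.60 ± 0.17). List medians were 1.40 (wider endoderm), -0.22 (FGF and ERK), 0.62 (PDGF), 1.73 (GATA and SOXF) and 0.23 (basement membrane), beside -0.06 over all genes.

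Trophectoderm markers moved with the endoderm genes. Their 8 genes summed to 163 to 166 CPM in WT, 417 to 425 in Dux KO, 560 to 1926 in Obox4 KO and 3063 to 3819 in double KO, and 6 of 8 were called up in double KO, with Krt8 at 4.76 ± 0.31 and Hand1 at 3.79 ± 0.23. The 13 epiblast markers summed to 6224 to 6298 CPM in WT and 3173 to 3715 in double KO, with Nanog down by -1.62 ± 0.09. Markers of the 2C state summed to 825 to 923 CPM in WT and 2.96 to 4.10 in double KO, with Zscan4c, Zscan4d, Zscan4f, Zfp352 and Tcstv3 at 0 there. Their part in the rise of the endoderm genes was not tested.

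In 2C-embryos, 2 of the 10 genes, Lama1 and Sox17, were lower in the libraries labelled double KD, beside 11.6% of the 23085 genes tested. All 10 were tested. Lama1 was at 7.03 and 7.84 CPM with scramble, 3.63 and 2.53 with Obox4 KD, 6.79 and 6.71 with Dux KD, 3.07 and 2.36 with double KD, and 4.30 and 3.77 with double KD and Obox4 mRNA. Both Obox4 KD and both double KD libraries lay below every scramble and Dux KD library. The change was -1.27 ± 0.21 in Obox4 KD (adjusted p 0.00211) and -1.44 ± 0.21 in double KD (adjusted p 3.46e-05, edgeR). In Dux KD it was -0.14 ± 0.20 (adjusted p 0.692). With the mRNA it was 0.56 ± 0.21 above double KD on the log2 scale, which did not pass the test (adjusted p 0.0511, edgeR). The difference of the Obox4 KD effect with and without Dux KD was -0.03 ± 0.29 (adjusted p 0.979, edgeR).

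Sox17 had 39 and 47 reads with scramble, or 1.19 and 1.93 CPM, and 19 and 19 reads with double KD, or 0.386 and 0.622 CPM. It fell by 1.65 ± 0.41 on the log2 scale (adjusted p 0.00433, edgeR), and it lost the call without the first double KD library (adjusted p 0.0728) or the second scramble library (adjusted p 0.0690). With Obox4 mRNA it was at 1.18 and 1.43 CPM, above both double KD libraries, a change of 1.40 ± 0.40 with an adjusted p of 0.014 (edgeR), outside the threshold. Single Obox4 KD (0.864 and 1.03 CPM) and Dux KD (0.547 and 0.816 CPM) lay below scramble with changes of -0.70 ± 0.39 and -1.20 ± 0.41 (adjusted p 0.358 and 0.0454).

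Lama1 was the 1 gene of the 10 called in the libraries labelled Obox4 KD, where Obox4 itself was not lower, beside 0.412% of all genes, and it lost the call when the second KD library or either scramble library was left out (adjusted p 0.0101 to 0.0325, edgeR). In Dux KD none of the 10 was called by edgeR (4.30% of all genes), nor for the mRNA over double KD (4.37%) or for the interaction (0.256%), and DESeq2 called none of them either. The numbers of the 10 with an unadjusted p under 0.05 (edgeR) were 2, 5 and 2, beside 7306, 8783 and 3671 of the 23085 genes tested. Dab2, abundant in these embryos, was at 245 and 240 CPM with scramble, 191 and 201 with Dux KD, 151 and 159 with double KD and 207 and 195 with the mRNA. The double KD libraries lay below all others, while Dux KD and the mRNA group overlapped. Its changes of -0.31 ± 0.07 in Dux KD, -0.65 ± 0.07 in double KD and, for the mRNA over double KD, 0.38 ± 0.07 had adjusted p of 0.0059, 1.81e-06 and 0.000672 (edgeR), all below the fold threshold. Gata4 was at 91.6 and 75.0 CPM with scramble and 103 and 112 with double KD (0.36 ± 0.10, adjusted p 0.00593, edgeR), also below it. Gata6, Pdgfra, Lamb1, Col4a1 and Col4a2 had changes between -0.43 and 0.65 in the 3 knockdowns. Sox7 had 1 to 30 reads per library, too few to show a difference.

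At the double KD, 0 of 20 wider endoderm genes were called, while Nid1 (1.69 ± 0.21) and Plod3 (a collagen lysyl hydroxylase) rose among 21 basement membrane genes and Fgf4 (1.46 ± 0.18) and Fgfr4 (1.42 ± 0.33) among 18 FGF and ERK genes (adjusted p at most 0.00243, edgeR). Fgf4, the ligand that the epiblast lineage sends to the primitive endoderm, fell by 1.56 ± 0.17 with the Obox4 mRNA (adjusted p 3.85e-06, edgeR). Of 8 markers of the 2C state 6 fell in double KD, from 1069 to 1157 CPM in sum with scramble to 365 to 388 CPM. Of 13 epiblast markers 4 rose, Esrrb (1.25), Zfp42, Klf2 (1.27) and Tdgf1 (2.71), while their sum was 485 to 533 CPM with scramble and 482 to 493 with double KD. Hand1 of the trophectoderm list (2.31), Mixl1 of the mesendoderm list (2.80) and Cldn5 of the endothelium list (3.27) rose as well. The part of these markers in the change of Lama1 and Sox17 was not tested. Markers of granulosa cells, which surround the oocyte, summed to 10.6 to 11.1 CPM with scramble and 9.76 to 10.4 with double KD, with Star up and Cyp19a1 down.

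In morulae no gene was called by edgeR among the 22142 tested (0%), although 3941 had an unadjusted p under 0.05 and DESeq2 called 726. Of the 10, 3 had an unadjusted p under 0.05, Gata6, Gata4 and Pdgfra. The 2 double KD libraries differed from each other, and data simulated for this comparison over 20887 genes gave back 24% of log2 changes of 1.5. Gata6, at 410 and 348 CPM the most abundant of the 10 per kb of exon in scramble morulae, was at 243 and 102 CPM with double KD, a change of -1.14 ± 0.42 (adjusted p 0.262, edgeR). Gata4 was at 18.1 and 11.8 CPM with scramble and 34.4 and 60.8 with double KD, a change of 1.67 ± 0.37 (adjusted p 0.227, edgeR), and it was the 1 gene of the 10 that DESeq2 called (1.65, adjusted p 0.00145). Pdgfra was at 30.5 and 17.9 CPM with scramble and 14.4 and 6.37 with double KD (-1.22 ± 0.48, adjusted p 0.272). For these 3 genes the groups did not overlap, and the same held for Dab2, Col4a1 and Col4a2. The share of all genes without overlap was not computed, so this is no result about these genes.

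Dab2 was at 212 and 223 CPM with scramble and 170 and 88.8 with double KD, and Lamb1 at 111 and 120 with scramble and 131 and 62.8 with double KD. Col4a1 (146 and 146 against 137 and 128 CPM) and Col4a2 (68.2 and 77.8 against 59.4 and 55.9 CPM) lay slightly lower in both double KD libraries. The second double KD library had the lowest level of Gata6, Pdgfra, Dab2, Lamb1, Col4a1 and Col4a2 and the highest of Gata4 and Sox17. Leaving it out gave 1 called gene (Gata4, 1.20) and leaving out the first gave 5, but the double KD arm is then 1 library that is assumed to vary like the 2 scramble libraries. Read counts in morulae were low for Sox7 (6 to 22), Sox17 (2 to 116) and Lama1 (48 to 208).

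The 10 genes differed in level between the 2 stages, which come from separate tables and were not tested against each other. In scramble libraries, Gata6 was at 0.306 CPM per kb in 2C-embryos and 58.2 in morulae, Col4a1 at 1.36 and 19.5, and Pdgfra at 0.196 and 2.41. Gata4 was at 21.3 and 3.83 and Lama1 at 0.768 and 0.153. Dab2 (33.0 and 29.6) and Lamb1 (11.4 and 11.6) were close at both stages.

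**Figure D3:**
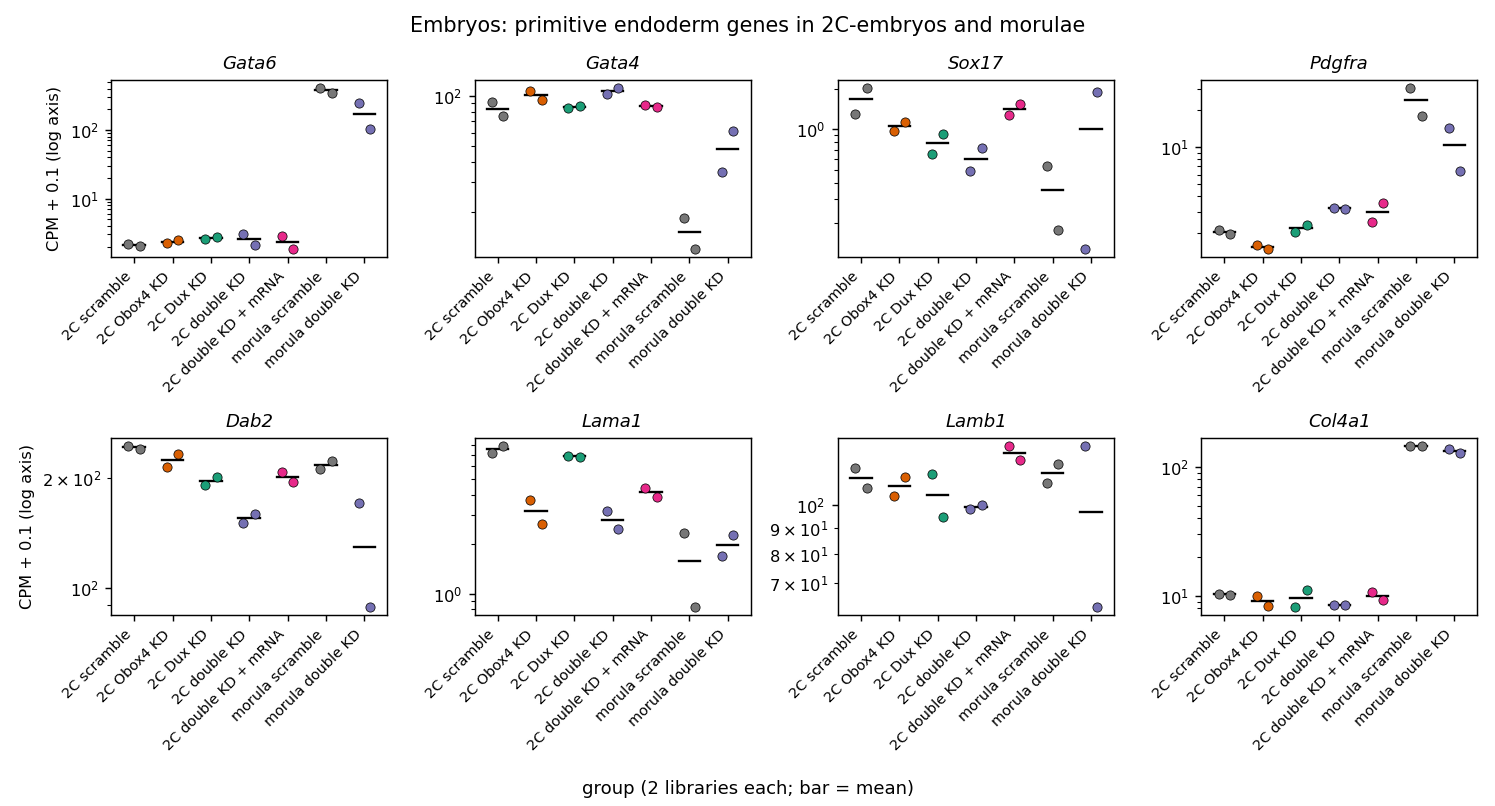
CPM plus 0.1 on a log axis for 8 of the 10 genes in each 2C and morula library, with points for libraries and bars for means. Lama1 was lower in both Obox4 KD and both double KD 2C libraries, and the 2 stages come from separate tables.

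In Dux KO blastomeres no gene was called by edgeR for Obox4 KO (0%) or Het (0%) against WT among 19182 tested, with 1388 and 532 genes at an unadjusted p under 0.05 (1 of the 10 each, Pdgfra and Sox17) and 466 and 110 called by DESeq2. Data simulated for the KO comparison over 17660 genes gave back 6% of log2 changes of 2, so differences of this size were not detectable with single cells. Dab2 (247 and 205 CPM in WT, 282 and 303 in KO, 168 and 131 in Het), Gata4 (121 and 140, 87.1 and 90.2, 96.8 and 65.4) and Lamb1 (88.8 and 108, 97.7 and 99.7, 103 and 84.8) were present in all 6 cells. Sox17 was at 0 reads in both WT cells, 0 and 241 in KO and 654 and 0 in Het. Gata6 had 0 and 138 reads in WT and 212 and 1300 in KO, and Pdgfra 295 and 495 in WT and 1 and 2 in KO. DESeq2 called Sox17 in both comparisons, each time on 1 cell of a group, and Sox7 had reads in 1 of 6 cells and was not tested.

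**Figure D4:**
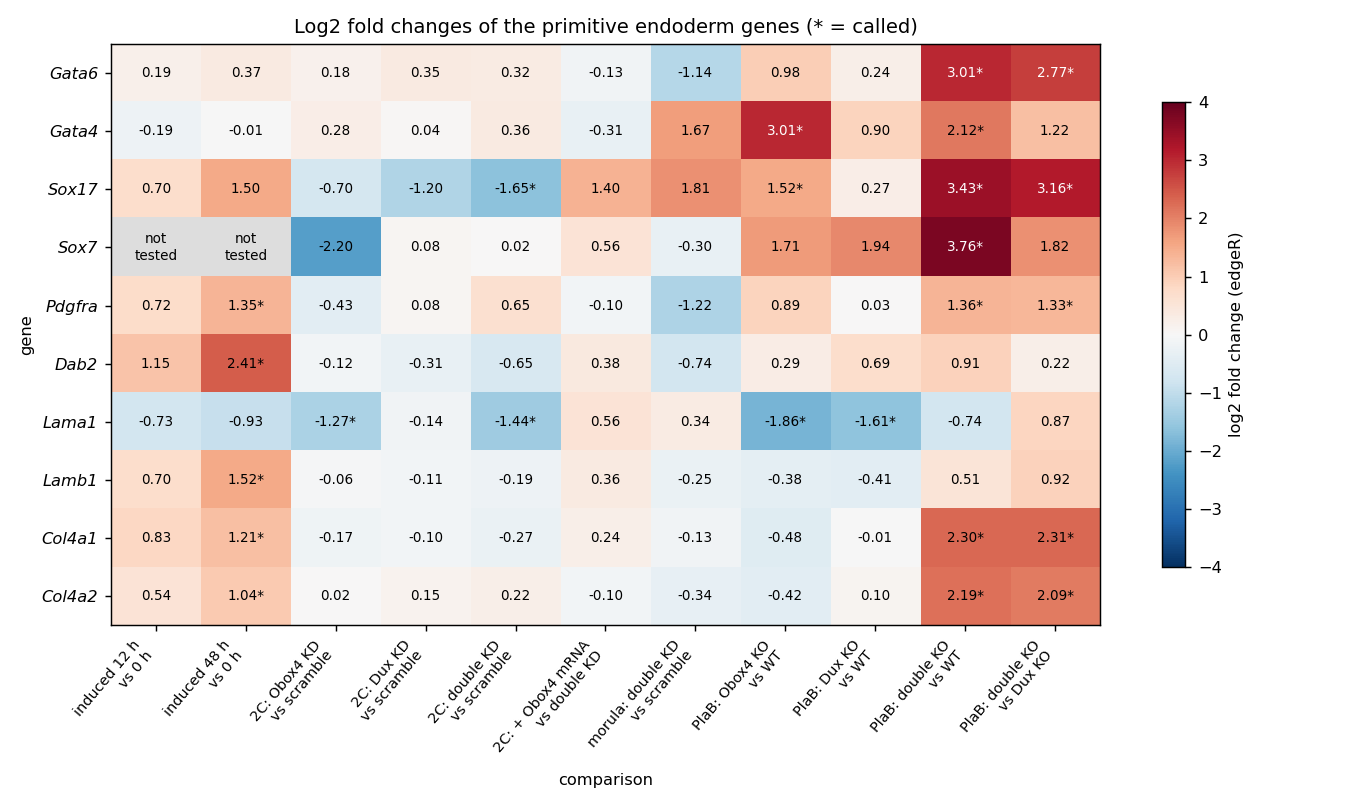
Log2 fold changes of the 10 genes (rows) in 11 comparisons (columns), red for higher and blue for lower, with an asterisk for a called gene and grey for a gene not tested. The double KO columns hold 7 and 5 called genes, all higher, and Lama1 was called lower in Obox4 KD, double KD, Obox4 KO and Dux KO.

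Peaks were read at each gene's start, the outermost 5′ end in the gene table of GRCm38.p6, when they lay within 3000 bases of it in at least 2 of 3 lists, called by the authors per replicate. Enrichment is the authors' fold of the signal over the local background and is not scaled for depth between libraries. OBOX4 had a peak at the start of 1 gene of the 10, Lama1, beside 17.2% of 55364 genes. DUX, with a single list, also had its 1 peak at Lama1, beside 0.883% of genes. Lama1 lies on the plus strand of chromosome 17 from 67697259 to 67822647. The OBOX4 peaks were in the second and the third list, with summits at -108 and -189 bases from the start and enrichments of 5.21 and 4.46, and the first list had its nearest peak 13898 bases away. The DUX peak, with a summit at -46 bases, had an enrichment of 6.40. None of them reached a -log10 q of 10.

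Part of the Lama1 region before the start is shown because both OBOX4 peaks reach into it. The 168 bases lie at chr17:67696959-67697126, plus strand, read from GRCm38.p6, and end before the first exon of any RefSeq transcript of Lama1. Capitals mark the 138 bases of it that both OBOX4 peaks cover. The summit of the third list lies in it, while those of the second list and of DUX lie downstream of it and are not shown.
Lama1: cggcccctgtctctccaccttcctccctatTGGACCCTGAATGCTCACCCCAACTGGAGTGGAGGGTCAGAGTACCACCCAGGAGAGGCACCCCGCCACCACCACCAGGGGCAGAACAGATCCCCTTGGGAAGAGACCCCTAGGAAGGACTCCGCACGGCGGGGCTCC
In this stretch 64.9% of bases were G or C. The 300 bases before the start were searched on both strands for a homeodomain core, GGATTA, which 10.2% of the same windows before all gene starts held. The GATA core GATAAG was in 8.71% of windows, the core TGATTNAAT of DUX sites in 0.930% and the study's OBOX4 motif in 2.17%. None of these 4 was found before Lama1.

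The next genes outside the rule were Col4a1 and Col4a2. Col4a1 runs on the minus strand of chromosome 8 from 11198423 to 11312826 and Col4a2 on the plus strand from 11312805 to 11449287, so their starts are 21 bases apart, share every peak and overlap in the bases shown here, written on the plus strand (chr8:11312805-11312826) from the Col4a2 start to the Col4a1 start.
Col4a2 to Col4a1: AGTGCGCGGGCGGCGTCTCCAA
An OBOX4 peak lay inside Col4a1, outside its exons, in all 3 lists, with enrichments of 9.51, 8.59 and 6.52 and -log10 q of 24.3, 16.4 and 13.4. Its nearest edge was 3072, 3139 and 3104 bases from the Col4a1 start, beyond the window. Over any annotated transcript start Col4a1 was counted too. The 200 bases chr8:11309203-11309402, which hold the summits of the first and the second list, are shown on the minus strand, the strand of Col4a1, with the 1 motif match, GATAAG, in capitals.
OBOX4 peak in Col4a1: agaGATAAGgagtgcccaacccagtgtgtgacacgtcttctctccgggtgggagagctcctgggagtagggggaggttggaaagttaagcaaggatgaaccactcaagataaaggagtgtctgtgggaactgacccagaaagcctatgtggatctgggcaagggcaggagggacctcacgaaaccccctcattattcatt
Pdgfra had an OBOX4 peak in the first list only, with a summit at -2046 bases and an enrichment of 3.86. No OBOX4 peak lay within 3000 bases of the other 6 starts, where the nearest ones were 11508 bases away or more.

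H3K4me3, the mark of active or poised promoters, was at 9 of the 10 starts in untreated WT mESCs (40.5% of all genes), and at 8 in WT with PlaB (35.9%), untreated Obox4 KO (37.9%) and Obox4 KO with PlaB (36.4%). H3K27me3, the Polycomb mark of repressed genes, was at 8 starts in untreated WT (22.1%), 9 in WT with PlaB (20.9%), 8 in untreated Obox4 KO (24.0%) and 8 in Obox4 KO with PlaB (24.5%). H3K27ac, the mark of active promoters and enhancers, was at none of the 10 in WT without (23.0%) or with PlaB (21.2%) and at 1, Lama1, in Obox4 KO without (23.6%) and with PlaB (22.0%). Thus 8 of the 10 starts, all but Dab2 and Lama1, carried H3K27me3 in every condition, and 7 of these, all but Gata4, also carried H3K4me3.

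Heights were compared between the 3 lists of each condition, and a difference was counted when the lists did not overlap; an exact permutation test of 3 against 3 cannot go below p = 0.1, so none is given. Shares for heights are over genes with a peak in any list of either condition. For H3K4me3 and H3K27me3, 8 or 9 of the 10 starts had such a peak. H3K27me3 was higher in every untreated Obox4 KO list than in every WT list at 7 of 8 such starts, beside 42.1% of genes. With PlaB it was higher at 8 of 9, beside 39.4%. At Sox17 the enrichments were 4.45, 4.64 and 4.32 in untreated WT, 5.92, 5.15 and 4.76 in WT with PlaB, 7.41, 7.13 and 7.41 in untreated Obox4 KO and 7.86, 7.23 and 7.43 in Obox4 KO with PlaB. At Gata6 the values were 4.60, 4.46 and 4.53 in untreated WT and 7.47, 7.58 and 8.28 in Obox4 KO with PlaB. In WT, H3K27me3 was higher with PlaB in every list at Gata6, Gata4, Sox17 and Sox7, the 4 transcription factors, beside 13.0% of genes.

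H3K4me3 in WT was lower with PlaB at Gata6, Gata4, Sox17, Sox7 and Pdgfra (38.4% of genes) and higher at Lama1, Col4a1 and Col4a2 (14.8%). At Gata6 it went from 22.5, 22.4 and 24.6 untreated to 9.28, 12.8 and 11.2 with PlaB. In untreated Obox4 KO it was lower than in WT at Gata6, Gata4, Sox7 and Pdgfra (17.0%) and with PlaB at Pdgfra, Lamb1, Col4a1 and Col4a2 (7.19%). Lama1 was the 1 start of the 10 where H3K4me3 was higher in Obox4 KO, both untreated (41.1% of genes) and with PlaB (61.3%). Its enrichments were 24.5, 26.5 and 26.1 in untreated WT, 31.3, 27.2 and 27.1 in WT with PlaB, 43.4, 56.2 and 73.9 in untreated Obox4 KO and 59.3, 62.3 and 79.8 in Obox4 KO with PlaB. H3K27ac at Lama1 was 7.22, 7.73 and 5.77 in untreated Obox4 KO and 4.11, 3.96 and 3.94 with PlaB, with no peak in any WT list. No RNA-seq of untreated Obox4 KO or WT cells was part of these 5 experiments.

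**Figure D5:**
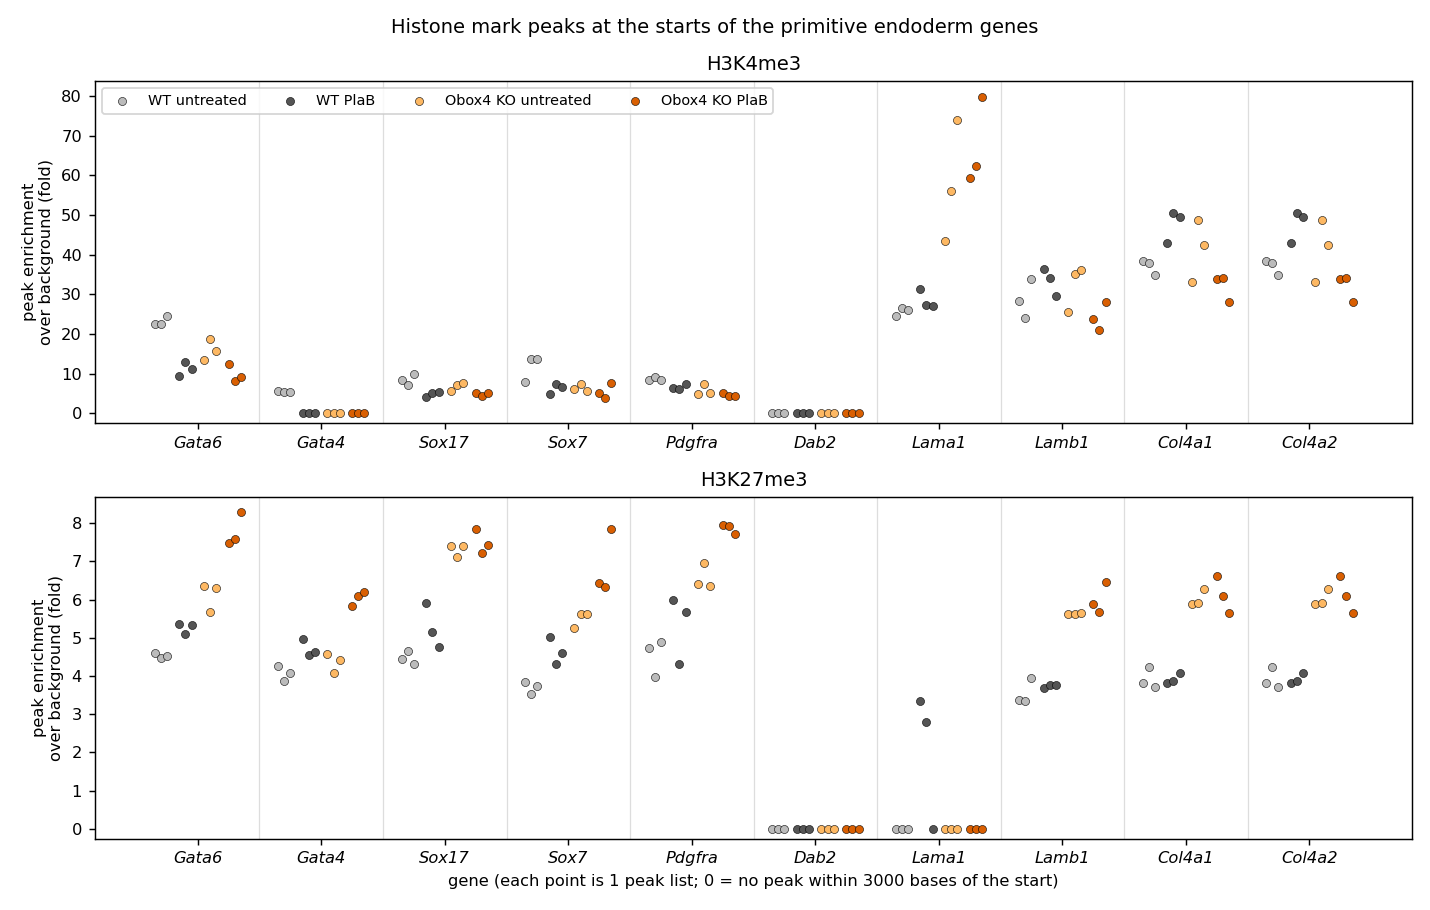
Peak enrichment over background within 3000 bases of each start for H3K4me3 (top) and H3K27me3 (bottom), with 1 point per list, 3 lists per condition and 0 for no peak. H3K27me3 was higher in Obox4 KO lists than in WT lists at 8 of the 10 starts with PlaB, and H3K4me3 at Lama1 reached 43.4 to 79.8 in Obox4 KO.

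For Gata4 and Dab2 the outermost start is not the one that carried the highest H3K4me3. Over any annotated transcript start, all 10 genes had an H3K4me3 peak in untreated WT (41.9% of genes), WT with PlaB (37.2%), untreated Obox4 KO (39.2%) and Obox4 KO with PlaB (37.7%). At the Gata4 start 26444 bases inside the outermost one the enrichments were 28.5, 38.2 and 35.0 in untreated WT, 18.2, 16.0 and 21.5 in WT with PlaB, 9.32, 13.0 and 9.73 in untreated Obox4 KO and 17.5, 14.0 and 15.2 in Obox4 KO with PlaB. At the Dab2 start 86810 bases inside, H3K4me3 was 25.5, 25.5 and 23.6 in untreated WT and 12.8, 17.7 and 14.1 in untreated Obox4 KO. H3K27me3 was called there in all 6 Obox4 KO lists, at 4.70 to 4.99 untreated and 3.54 to 3.96 with PlaB, and in none of the 6 WT lists. This start was chosen after its values were seen.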

How the data were processed

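The 10 genes and all gene lists were chosen with earlier results of these data known. The authors trimmed reads with fastp 0.23.2, aligned RNA-seq reads with STAR 2.7.9a to GRCm38.p6 and counted them per gene with featureCounts 2.0.1. The deposited gene values are counts of uniquely mapped reads, and those of blastomeres, whose header names fractional counting, are estimated counts, rounded here. For CUT&RUN the authors used Bowtie2 2.4.1 for alignment and MACS3 3.0.0a6 for peaks, replicate by replicate. The deposited lists give the fold enrichment (a ratio) and −log10 q of each peak. Columns of the repeat tables were used here only for gene rows counted with multi-mapping reads, which the authors split into fractions (expected counts).

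Each experiment was fitted with edgeR 4.0.16 (R 4.3.3) over all its groups. The fit used filterByExpr, TMM factors, the quasi-likelihood test and Benjamini-Hochberg adjustment over all genes tested. SEs were derived from the F statistic. A call needed adjusted p at or under 0.01 together with 1 log2 unit of change, up or down. The 10 genes were named in every comparison, other lists by counts and at most 4 called genes with the smallest p, and likeness by the 5 genes closest to the mean profile over 9 libraries. Symbols were found for 99.4% of gene IDs. Alternatives were DESeq2 1.42.0, its size factors, no filter, multi-mapping reads, a replicate block and each library left out. The code was tested on simulated data with 200 genes changed: 91% of genes set to a log2 change of 1.5 were found at 12 h (18038 genes). For the same change it was 78% for Obox4 KD in 2C-embryos and 75% for Obox4 KO in PlaB, with 2 false calls in PlaB. In morulae it was 24%, and in Obox4 KO blastomeres 0%. Peaks were taken per gene with bases counted from 1, and sequences were read from GRCm38.p6 by coordinates, with the promoter table of RefSeq (GRCm38.p6) holding 5 of the 10 genes. No library was a copy of another of its group. IgG and control lists were not used here.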

Additional observations from a re-analysis of the deposited data

Results flagged for a closer look

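Lama1 in PlaB was singled out because the change from Dux KO to double KO differed from that from WT to Obox4 KO by the interaction test (2.74 on the log2 scale, edgeR's quasi-likelihood test with an adjusted p of 0.000903): it was lower in 3 of 3 Obox4 KO libraries than in every WT library, and higher in 3 of 3 double KO libraries than in every Dux KO library. Obox4 RNA was already near 0 in Dux KO (6 to 19 reads), so the term compares WT cells and separately derived knockout cells. Pdgfra and Col4a2 were singled out because every double KD library lay above every scramble library in 2C-embryos and below every one in morulae, where the log2 changes were -1.22 and -0.34. In 2C-embryos the log2 changes were 0.65 and 0.22 (adjusted p 0.0537 and 0.321, edgeR). Neither gene was called at either stage, and the difference between the stages was not tested. The share of all genes that met the same rule was not computed, so a reversal between stages is not shown.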

How the results depend on the processing

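Morula and blastomere comparisons have 2 libraries a group and a large spread, so that few changes can be found there. Gata6, Sox17 and Sox7 rest on few reads in uninduced mESCs, and Sox7 and Sox17 on few in 2C-embryos and morulae. Dab2 (19 to 37 reads) and Pdgfra (39 to 50 reads) were also low in uninduced mESCs. Peak enrichment is not scaled for depth. Peak counts of H3K27me3 depend on the threshold.

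The number of the 10 genes called moved by over 1.5 times as follows, and the cause was not tested. At 48 h (5 genes) it was 3 with the replicate block and 3 to 6 with 1 library left out, where 3 came without any 0 h library or without the second or the third 48 h library. Replicate numbers did not pair the samples, with correlations of same-numbered deviations from -0.41 to 0.38, and a paired fit with the replicate block gave 1 gene (Sox17) for the mRNA over double KD in 2C-embryos and 3 for the PlaB interaction. In Obox4 KD 2C-embryos (1 gene) leaving out a library gave 0 to 1, and in double KD 2C-embryos (2 genes) 1 to 2, with 1 (Sox17 lost) without the first double KD or the second scramble library. In morulae (0 genes) it was 3 with no filter, 1 with DESeq2 and 0 to 5 with 1 library left out. A 2-library group then holds 1 library, assumed to vary like the others in the fit. In blastomeres (0 genes) DESeq2 gave 1 in KO and 1 in Het. In Dux KO with PlaB (1 gene) it was 2 with no filter, 2 with DESeq2 and 2 without the third Obox4 KO and double KO libraries, an alternative chosen after seeing the data, with Sox7 added each time. For the PlaB interaction (1 gene) it was 3 with RLE size factors, 5 with no filter, 5 with DESeq2, 7 without the third libraries, and 1 to 7 with 1 library left out, where 7 came without the third Obox4 KO library.

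OBOX4 peaks (1 start) gave 0 at a -log10 q of at least 10, 0 when all 3 lists were needed, 0 to 1 with 1 list left out and 2 over any annotated start (Lama1 and Col4a1), also chosen after seeing the data. The DUX peak gave 0 at that q. At that q, H3K4me3 in Obox4 KO with PlaB (8) gave 5, H3K27ac in Obox4 KO with PlaB (1) gave 0, and H3K27me3 gave 0 in both WT conditions (8 and 9), 3 in untreated Obox4 KO and 5 with PlaB (8 each). H3K27ac in WT with PlaB (0) gave 1, Dab2, over any annotated start. Leaving out 1 list, chosen after seeing the data, changed the number of starts whose H3K4me3 lists did not overlap from 2 to between 2 and 5 for PlaB against untreated Obox4 KO and from 5 to between 5 and 8 for untreated Obox4 KO against WT. In all, 287 of 330 recomputed counts stayed within 1.5 times of the reported one, and no called gene changed its sign.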
